A study of Mus musculus with 24 samples.

Results

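The effect of PMX-53 in mice without diabetes was measured in 12 of the 24 renal cortex libraries of this series, 6 from mice given PMX-53 and 6 from mice given plain drinking water (called vehicle here). The members are these 12 libraries, chosen by their labels, and every gene that passed an expression filter, 15808 of 48526 genes in the table. All 24 animals were C57BL/6 mice, and the labels give no altered gene. At 6 weeks of age the 12 non-diabetic mice received citrate buffer and the 12 diabetic mice 55 mg/kg streptozotocin, a toxin for the insulin-producing beta cells, on 5 days. Within each arm 6 mice had 2 mg/kg PMX-53 in the water and 6 had water alone, and all were followed for 24 weeks. Nothing beyond the sample names says that each library came from a separate animal, so every p-value is set against the spread between libraries, which may be technical in part. The labels give no time of day for tissue collection.

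C5a is a fragment released from complement component C5 when the cascade is activated, and it signals through the receptor C5aR1 (gene C5ar1), found mainly on myeloid cells. C5aR2 (C5ar2) is a further C5a receptor, and C3aR (C3ar1) is the receptor of the related fragment C3a. PMX-53 is a cyclic peptide that blocks C5aR1. The non-diabetic arm asks what long exposure to this inhibitor does to the cortex when there is no diabetes, and it is the reference against which the effect in diabetic mice is read.

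In the non-diabetic cortex no gene passed the test for a difference between PMX-53 and vehicle. The test was edgeR's quasi-likelihood F test with Benjamini-Hochberg adjustment over 15808 genes and a threshold of 0.05 for the adjusted p (percent called 0). The smallest adjusted p was 0.327, and 1142 genes (7.22%) had an unadjusted p under 0.05, 556 of them higher (3.52%) and 586 lower (3.71%) on PMX-53. DESeq2 on the same libraries called 4 genes, limma voom called 0, and DESeq2 fitted on the 12 non-diabetic libraries alone called 58. In the diabetic arm the same edgeR model called 4317 genes (27.3%), 2190 higher (13.9%) and 2127 lower (13.5%).

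The fit used the same estimate of the spread per gene for all 4 groups of 6 libraries. Near-equal standard errors in the 2 arms follow from this and do not show that the arms varied alike. The median standard error of a log2 fold change was 0.10 in the non-diabetic and 0.10 in the diabetic mice, whereas the median size of the log2 fold change was 0.08 and 0.16. In the non-diabetic mice the 95% interval of the fold change lay wholly within 1.5-fold for 12400 genes (78.4%) and within 2-fold for 15016. Among the 4538 genes with an average log2 CPM (a count scaled by the library total) of at least 5, 4399 (96.9%) had an interval within 1.5-fold. In diabetic mice 517 of the genes past the threshold differed at least 2-fold, with a median size of 1.31 on the log2 scale. The same 517 genes had a median size of 0.20 in non-diabetic mice, where 344 of them had an interval within 2-fold.

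**Figure D1:**
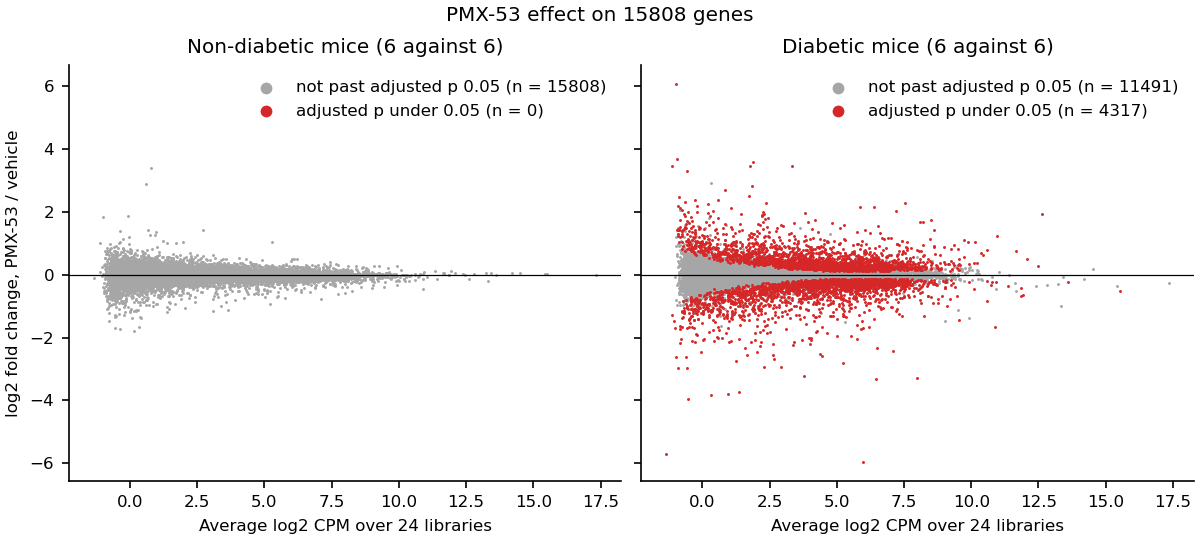
The log2 fold change of PMX-53 over vehicle (vertical axis) is plotted against the average log2 CPM (horizontal axis) for 15808 genes, each point 1 gene, in non-diabetic mice at left and diabetic mice at right, with genes past an adjusted p of 0.05 in red. No point is red at left, and 4317 are red at right.

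The difference between the arms was tested as the interaction, the log2 fold change in diabetic mice minus that in non-diabetic mice. It passed for 1489 genes (9.42%), 737 positive and 752 negative. The diabetic vehicle libraries stood apart from the other 18 in 2 genes chosen after their values were seen. Nnt, a mitochondrial transhydrogenase, had 242 to 272 CPM there and 101 to 121 elsewhere, and Ide, the insulin-degrading enzyme, 62.2 to 76.5 against 111 to 169. A property of that group that is not due to diabetes and the response to PMX-53 in diabetic mice therefore cannot be told apart in the interaction. Every value given here for PMX-53 in diabetic mice is set against the same group and carries the same limit. Both genes lay in 1 range over the 12 non-diabetic libraries, 101 to 112 CPM for Nnt and 111 to 168 for Ide.

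The 12 non-diabetic libraries held 12461567 to 17810087 counts, so that 1 CPM rests on 12.5 to 17.8 counts. Total counts, genes detected, the shares of mitochondrially encoded genes and of ribosomal RNA, and the share of the 100 most counted genes showed no difference past the threshold in exact two-sided permutation tests (6 against 6, smallest possible p 0.00216, lowest p 0.141, lowest adjusted p 0.558). Mitochondrially encoded genes took 22.6% ± 1.65 of the counts on vehicle and 22.9% ± 1.51 on PMX-53 (SD, n = 6 each). Some libraries stood apart within their group over all genes. Vehicle replicates 5 and 6 differed from each other by a chi-square per degree of freedom of 10.9 and from vehicle replicates 1 to 4 by 32.8 to 78.6, and PMX-53 replicates 4 and 6 by 10.7 from each other and by 40.6 to 52.2 from PMX-53 replicates 1 and 2. With these 4 libraries left out together, a setting added after seeing the data, edgeR again called 0 genes and 655 had an unadjusted p under 0.05. For several of the gene lists the counts and medians without them are given as well. Over all genes the count at that p was 1142 in the fit of all 24 libraries and 928 to 1317 with 1 of the 12 left out. No such number is given for limma voom or for the edgeR fit on the 12 libraries. The shares of all genes set beside list counts are those of the fit of all 24 libraries. Defining genes of the cortex were present, with all 8 markers of the first segments of the proximal tubule tested. Markers of skeletal muscle gave no tested gene of 6, the only list without one. Those of medulla and papilla had 6 of 8 tested, summing to 249 to 488 CPM on vehicle and 249 to 466 CPM on PMX-53. Adipose markers had 3 of 10 (29.0 to 50.8 and 33.5 to 53.5 CPM), and urothelial and adrenal markers 1 of 6 each.

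The receptor that PMX-53 blocks was close to the limit of detection. C5ar1 had 7 to 38 counts per library, 112 in all on vehicle and 102 on PMX-53. Its level ran from 0.456 through a median of 0.874 to 2.30 CPM on vehicle and from 0.724 through 0.960 to 1.29 CPM on PMX-53. The groups overlapped, and the highest values, 2.30 and 2.00, came from vehicle replicates 1 and 2. The log2 fold change was -0.28 ± 0.33 (SE) with a 95% interval from -0.96 to 0.39 (adjusted p = 0.923), so that smaller changes were not detectable in these libraries. C5ar2 had 75 counts in the 12 libraries together, 32 on vehicle and 43 on PMX-53. Hc, which encodes C5, had 12, of which 11 were on vehicle. Neither passed the expression filter.

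C3, the central complement component, is where the arms differed most among the complement genes named here. In non-diabetic mice C3 ran from 12.9 to 29.3 CPM on vehicle and from 9.38 to 24.8 CPM on PMX-53, with a log2 fold change of -0.04 ± 0.53 (95% interval -1.15 to 1.07, adjusted p = 0.999). In diabetic mice its log2 fold change was -3.32 (adjusted p = 8.89e-05), and the interaction was -3.28 (adjusted p = 0.00779). Vehicle replicate 4 had the highest C3 and also the highest C3ar1, at 6.12 CPM against 1.73 to 2.94 in the other 5 vehicle libraries. C3ar1 had a log2 fold change of -0.40 ± 0.25 (adjusted p = 0.793), and without that library it was 0.00.

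Of 29 further complement genes, 26 were tested and none passed, with a median log2 fold change of 0.01 beside 0.00 over all 15808 genes. At an unadjusted p under 0.05 none was higher and 1 lower, Cd55, which encodes a membrane protein that dissociates the complement convertases (-0.36 ± 0.14, adjusted p = 0.594). Chemokines, cytokines and adhesion molecules had 17 of 23 members tested and a median of 0.13. Only Il34, a ligand of the macrophage growth factor receptor, had an unadjusted p under 0.05, with a log2 fold change of -0.45 ± 0.21 (adjusted p = 0.679), beside 3.52% of all genes higher and 3.71% lower. This count moved with single libraries, to 3 higher and 1 lower without PMX-53 replicate 3, to 1 higher and 0 lower without PMX-53 replicate 1, and to 0 in either direction without PMX-53 replicate 4, 5 or 6 or vehicle replicate 1 or 4 and in the fit on the 12 non-diabetic libraries. Without the 4 libraries that stood apart it was 1 higher and 1 lower, with a median of -0.01. Il6, with 3 counts in 12 libraries, and Ccl2, with 91, were too low to test. Macrophage and dendritic cell markers had a median of -0.03 over 10 tested genes, and of -0.18 without those 4 libraries. In bulk tissue fewer cells of a type and less RNA per cell cannot be told apart.

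Genes of tubular injury and of fibrosis had no member past the threshold in non-diabetic mice. Havcr1, the injury marker KIM-1, ran from 0.735 through a median of 2.60 to 5.34 CPM on vehicle and from 0.521 through 1.23 to 2.81 CPM on PMX-53 (-0.92 ± 0.51, 95% interval -1.98 to 0.14). Lcn2, which encodes NGAL, was at 1.15 and 1.12 CPM (-0.05 ± 0.57). Spp1, osteopontin, was at 326 and 332 CPM (0.03 ± 0.26). In diabetic mice the same 3 genes had log2 fold changes of -2.57, -2.34 and -1.42, each past the threshold. Krt20, a keratin of injured tubules, had a wide interval (-1.71 ± 0.64, from -3.04 to -0.38, adjusted p = 0.555). Its vehicle mean rested on replicate 1, at 2.84 CPM against at most 0.911 in the other 5 vehicle libraries, and that library also had the highest Tnfrsf12a, 22.8 CPM. Over 18 injury genes the median was -0.03 in non-diabetic and -0.45 in diabetic mice. Without the 4 libraries that stood apart it was -0.40 in non-diabetic mice, with 0 genes higher and 5 lower at an unadjusted p under 0.05 in place of 0 and 1. In the fit of all 24 libraries 3.52% of all genes were higher and 3.71% lower at that p.

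Of 31 matrix and fibrosis genes, 30 were tested, and their median was 0.03 against 0.45 in diabetic mice. In diabetic mice 15 were higher past the threshold, beside 13.9% of all tested genes. Col1a1 had a log2 fold change of -0.05 ± 0.20 and Col3a1 of -0.10 ± 0.22 in non-diabetic mice, and of 1.11 and 1.04 in diabetic mice. At an unadjusted p under 0.05, 2 were higher and none lower in non-diabetic mice, beside 3.52% and 3.71% of all genes. They were Eln (elastin, 0.49 ± 0.17) and Postn (periostin, 1.02 ± 0.37 at levels from 0.184 to 1.93 CPM). Without PMX-53 replicate 4, the library highest in Postn, 1 was higher and 1 lower, and without PMX-53 replicate 1, 4 were higher and none lower. Without the 4 libraries that stood apart 0 were higher and 1 lower, with a median of -0.11, Eln at 0.30 and Postn at 0.50.

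Genes of the respiratory chain lay close to 0 with narrow intervals. Complex I, the entry point of electrons from NADH, had 37 nuclear-encoded genes tested, whose log2 fold changes lay between -0.11 and 0.15 with a median of 0.02. All 37 had a 95% interval within 1.5-fold, and none had an unadjusted p under 0.05. In diabetic mice the median was -0.28, 28 of the 37 were lower past the threshold, and the interaction passed for 21. Over all tested genes 13.5% were lower past the threshold in diabetic mice, and the interaction passed for 9.42%. Complexes II to IV (25 genes) had a median of 0.03 in non-diabetic and -0.31 in diabetic mice, with all 25 intervals within 1.5-fold and 17 genes past the interaction test. Nuclear genes of ATP synthase (17) had medians of 0.05 and -0.31, and 11 passed the interaction test. For 1 of them, Atp5g1, which encodes a subunit of the rotor ring, the unadjusted p was under 0.05 (0.13 ± 0.06, adjusted p = 0.671).

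Vehicle libraries varied in several of these small genes. Ndufb7, a complex I subunit, ran from 28.0 through 35.0 to 40.7 CPM on vehicle and from 36.1 through 37.7 to 40.8 CPM on PMX-53, and vehicle replicates 5 and 6 were the 2 low libraries. Cytosolic ribosomal proteins, 43 of 44 tested, had a median of 0.03 in non-diabetic and -0.26 in diabetic mice. In diabetic mice 38 were lower past the threshold, beside 13.5% of all tested genes. All 43 intervals in non-diabetic mice lay within 1.5-fold. The 17 genes of the citric acid cycle had a median of -0.01 and 17 intervals within 1.5-fold. Of 13 tested genes that make or remodel cardiolipin, the signature lipid of the inner mitochondrial membrane, all had intervals within 1.5-fold. Lclat1, an acyltransferase of this pathway, was the only 1 with an unadjusted p under 0.05 (-0.12 ± 0.05, adjusted p = 0.594).

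**Figure D2:**
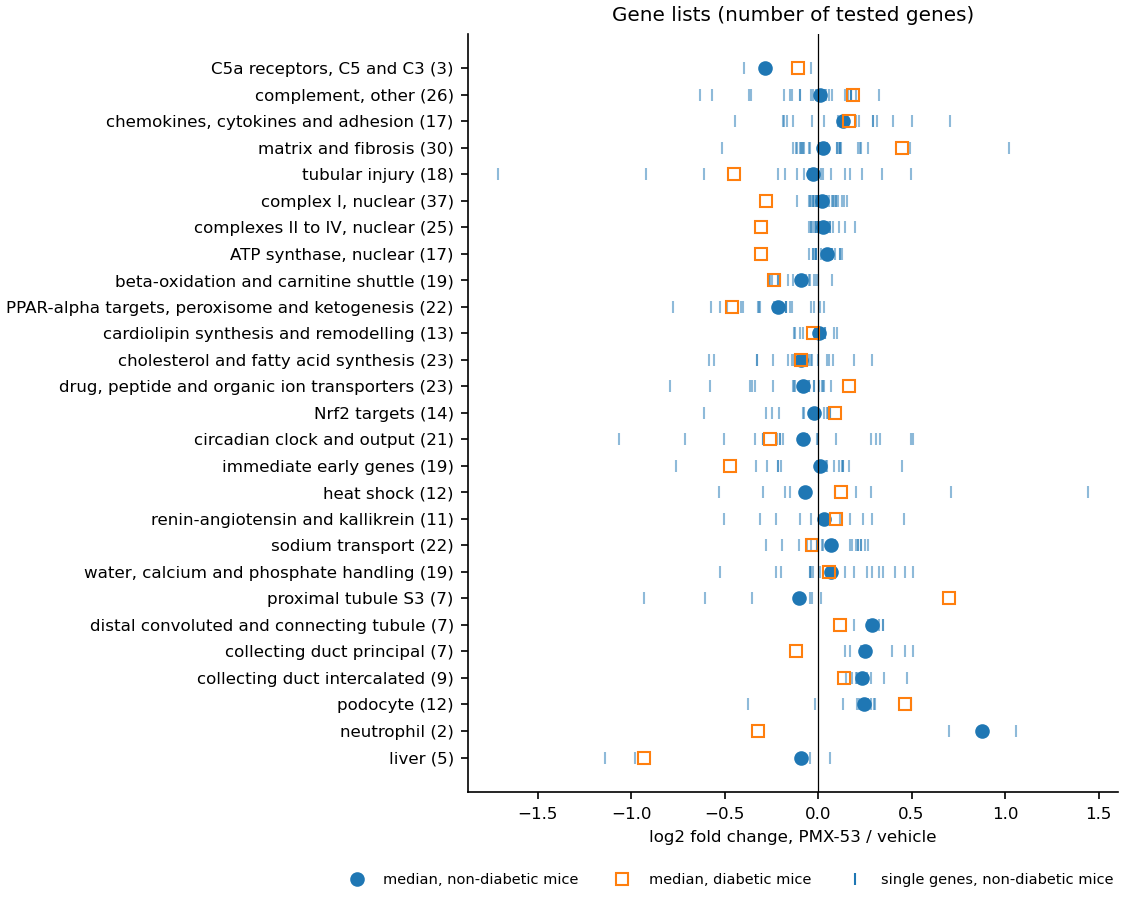
Each row is a gene list with its number of tested genes, and the horizontal axis is the log2 fold change of PMX-53 over vehicle. Ticks are single genes in non-diabetic mice, filled circles their median, and open squares the median in diabetic mice. The 3 respiratory chain lists have medians of 0.02 to 0.05 in non-diabetic mice and of -0.31 to -0.28 in diabetic mice.

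Genes with the smallest p, a choice that favours little spread between libraries, mostly differed by modest amounts. The groups did not overlap in 70 of 15808 genes (0.443%), 35 with all PMX-53 libraries above and 35 with all below. Vav2, an exchange factor that activates small GTPases of the actin skeleton (chr2:27262104-27427033, GRCm38, minus strand, protein-coding), ran from 36.1 through a median of 38.7 to 43.9 CPM on vehicle and from 44.8 through 46.3 to 49.7 CPM on PMX-53. All 6 PMX-53 libraries lay above all 6 vehicle libraries, and the log2 fold change was 0.26 ± 0.05 (95% interval 0.15 to 0.37, adjusted p = 0.327 by edgeR and 0.0494 by DESeq2). Palld (chr8:61511433-61902690), which encodes the actin scaffold palladin, ran from 47.1 through 63.4 to 73.1 CPM on vehicle and from 82.4 through 87.3 to 95.4 CPM on PMX-53. Its groups did not overlap either, at 0.49 ± 0.11 (adjusted p = 0.327). Mgat5, which branches N-glycans, was at 57.2 ± 5.74 and 69.6 ± 3.95 CPM (0.28 ± 0.06), with 1 PMX-53 library just below the highest vehicle library.

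Pde4d (chr13:108449948-109953461), a phosphodiesterase that degrades cyclic AMP, ran from 62.6 through 67.4 to 87.6 CPM on vehicle and from 48.5 through 55.0 to 59.8 CPM on PMX-53. Each PMX-53 library lay below each vehicle library, at -0.38 ± 0.08 (adjusted p = 0.327 by edgeR and 0.0494 by DESeq2). Klf3 (chr5:64803388-64832901), a zinc-finger repressor, had narrow groups, 74.4 to 79.7 CPM on vehicle and 60.4 to 69.2 CPM on PMX-53, at -0.24 ± 0.06. Syne3, a nuclear envelope protein, was also lower in each PMX-53 library, at -0.43 ± 0.11. St3gal5, the enzyme that makes the ganglioside GM3 (0.44 ± 0.12), and Tmem132a (0.47 ± 0.12) were higher in each, at levels of 2.30 to 8.84 CPM over both genes.

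Several of these genes had an effect of the same direction in diabetic mice, whose libraries are separate from the non-diabetic ones. There Vav2 was at 0.27, Pde4d at -0.50, Mgat5 at 0.43, Palld at 0.67 and Rassf3, a Ras association domain protein, at -0.39, each past the threshold. Of the 1142 genes with an unadjusted p under 0.05 in non-diabetic mice, 773 (67.7%) had the same sign in diabetic mice, beside 55.9% of all tested genes. Of the 1142, 405 (35.5%) were called in diabetic mice, beside 27.3% of all tested genes, and 331 of the 405 had the same sign. The 2 arms share 1 estimate of the spread per gene, and a small one favours a low p in both. The count of shared calls does not separate that from a shared effect. For Klf3, Bach2, Gga2 (a Golgi sorting adaptor), Hnf4aos, Gclc and St3gal5, 6 of the 24 genes with the smallest p, the interaction passed. It passed for 9.42% of all tested genes. The 24 were chosen by their effect in non-diabetic mice, which is part of the interaction, so the choice itself favours a pass. Klf3 was at -0.24 and 0.11 in the 2 arms (interaction adjusted p = 0.00635), and Bach2, a transcriptional repressor known from lymphocytes, at -0.32 and 0.15 (0.00717). Hnf4aos, an antisense partner of the gene of the hepatocyte nuclear factor HNF4A, was at -0.51 and 0.57 (0.000522), and the strand setting of the counting is not given in the sources used here. Gga2 was at -0.19 and 0.18 (0.00159), and St3gal5 at 0.44 and -0.17 (0.0178).

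**Figure D3:**
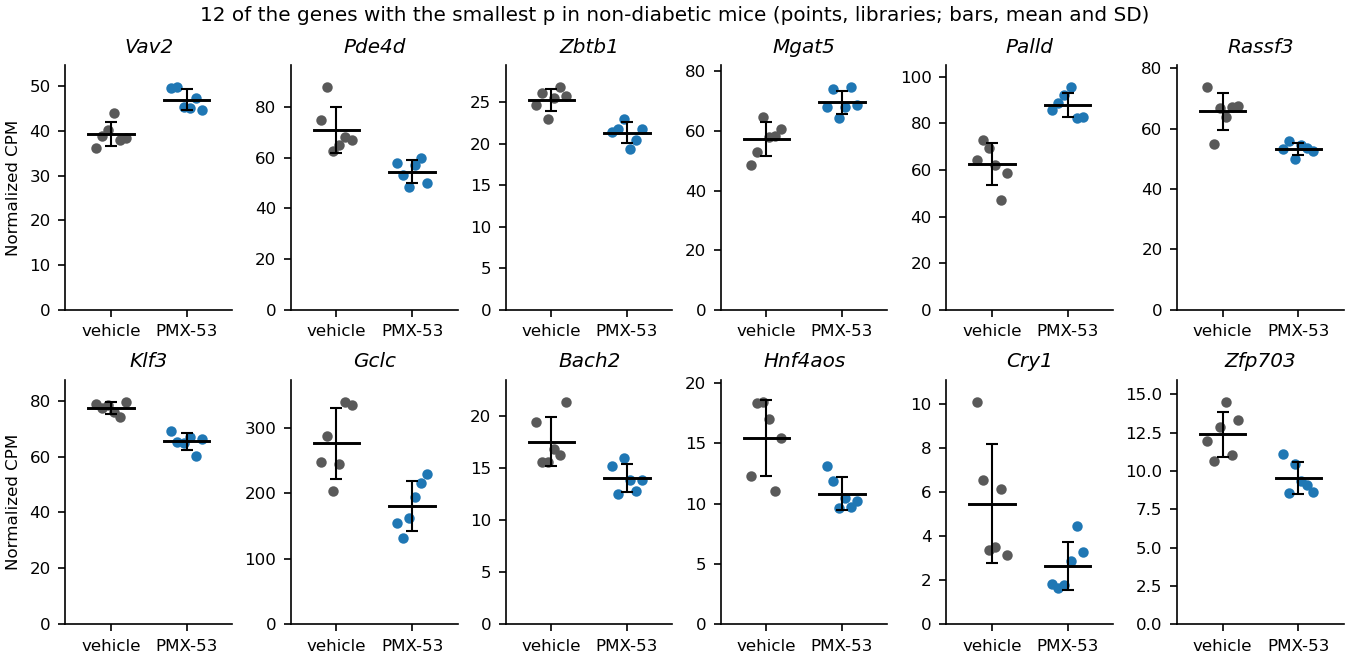
Normalized CPM (vertical axis, from 0) in each of 6 vehicle and 6 PMX-53 libraries is shown for 12 of the genes with the smallest p in non-diabetic mice, with the mean and SD as bars. The groups of Vav2, Pde4d, Palld and Klf3 do not overlap, and Cry1 has the widest relative spread.

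Of the 59 gene lists examined, which differ in size, the circadian clock had the largest number of members at an unadjusted p under 0.05 in the non-diabetic cortex. None of them passed the threshold. By share of tested members the neutrophil (1 of 2), intercalated cell (4 of 9), podocyte (5 of 12) and liver (2 of 5) lists lay above the clock. The circadian clock is a loop in which CLOCK and BMAL1 drive the Per and Cry repressors, and nuclear receptors such as REV-ERB act back on the gene of BMAL1. Of 21 genes tested, 1 was higher and 6 lower at an unadjusted p under 0.05, beside 3.52% and 3.71% of all genes, and the median was -0.08. Among the repressors, Cry1 (chr10:85131700-85185064) ran from 3.12 through 4.83 to 10.1 CPM on vehicle and from 1.66 through 2.34 to 4.45 CPM on PMX-53. Its groups overlapped, and the log2 fold change was -1.06 ± 0.25 (95% interval -1.59 to -0.54, adjusted p = 0.327). Cry2 ran from 32.8 through 36.5 to 42.2 CPM on vehicle and from 20.1 through 25.6 to 32.4 CPM on PMX-53, with no overlap (-0.50 ± 0.14, adjusted p = 0.381).

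Nr1d1, encoding REV-ERBα, ran from 38.5 through 52.6 to 60.6 CPM on vehicle and from 47.4 through 77.4 to 83.2 CPM on PMX-53 (0.50 ± 0.14, adjusted p = 0.381), and replicate 5 was the lowest PMX-53 library. Rora was at -0.22 ± 0.07, Wee1, a clock-controlled kinase, at -0.34 ± 0.11 and Hlf, a clock output factor, at -0.20 ± 0.10. Arntl, which encodes BMAL1 (0.31 ± 0.45), Per2 (-0.30 ± 0.21) and Dbp (-0.08 ± 0.29) had wide intervals that include 0.

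Several of these genes were past the threshold in the same direction in diabetic mice. Cry1 was at -1.40, Wee1 at -0.64, Cry2 at -0.56, Rora at -0.26 and Nr1d1 at 0.74. Of the 21 clock genes 11 passed there, beside 27.3% of all tested genes. The interaction passed for 1, Per1, which responds to glucocorticoids (adjusted p = 0.000514), beside 9.42% of all tested genes. Per1 was at 0.28 ± 0.22 in non-diabetic and at -1.73 in diabetic mice. The counts at an unadjusted p under 0.05 were 1 or 2 higher and 5 or 6 lower when any 1 of the 12 libraries was left out, and 1 and 5 without the 4 libraries that stood apart, with a median of -0.04.

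**Figure D4:**
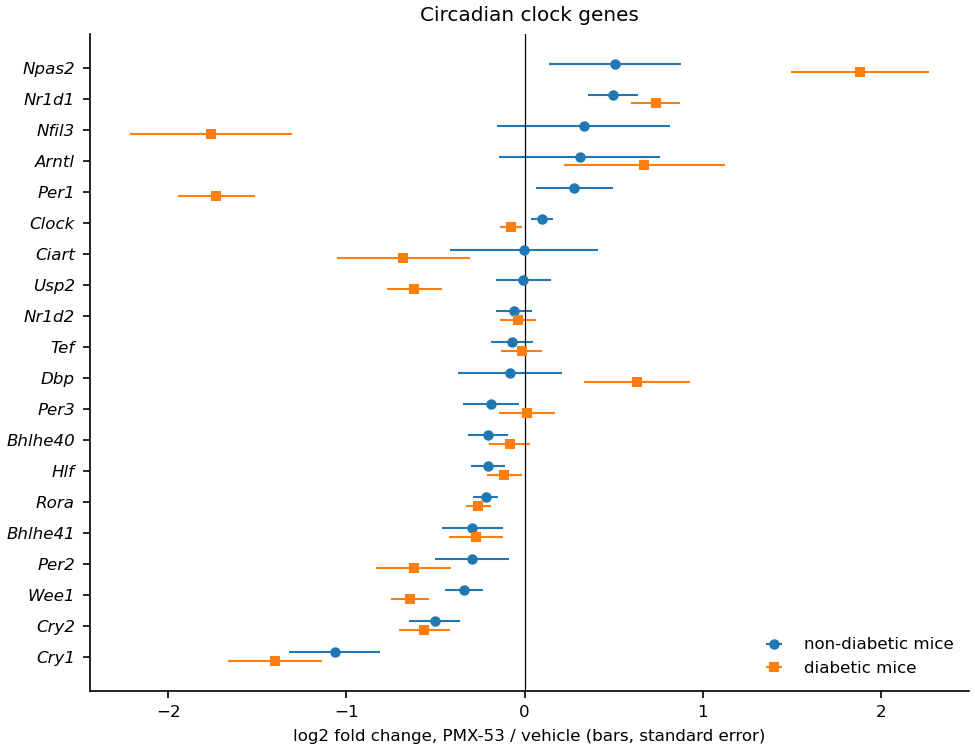
The log2 fold change of PMX-53 over vehicle (horizontal axis, bars show the standard error) is plotted for 20 clock genes in non-diabetic mice (circles) and diabetic mice (squares). Cry1, Cry2 and Wee1 lie below 0 in both arms and Nr1d1 above 0 in both, whereas Per1 lies at 0.28 and -1.73.

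Genes of fatty acid oxidation in mitochondria and peroxisomes, the main fuel route of the proximal tubule, were mostly a little lower on PMX-53, and none passed. Of 19 genes of beta-oxidation and the carnitine shuttle, 18 had a negative log2 fold change, with a median of -0.09, and 4, all lower, had an unadjusted p under 0.05. Over all tested genes 50.1% had a positive log2 fold change and 3.71% were lower at that p. Acadl, the long-chain acyl-CoA dehydrogenase, ran from 195 through 202 to 263 CPM on vehicle and from 163 through 175 to 202 CPM on PMX-53 (-0.25 ± 0.07, adjusted p = 0.368). Eci2, an enoyl-CoA isomerase, was at -0.21 ± 0.06 and Acadm, the medium-chain dehydrogenase, at -0.22 ± 0.08. All 19 intervals lay within 1.5-fold, beside 78.4% over all tested genes. In diabetic mice the median was -0.24 and 9 genes were lower past the threshold, Acadl (-0.26), Acadm (-0.24) and Eci2 (-0.42) among them. Over all tested genes 13.5% were lower past the threshold there.

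Vehicle replicate 5 was the highest vehicle library for all 3, with Acadm at 583 CPM against 408 to 428 in the other 5. Without it 2 genes of the list in place of 4 had an unadjusted p under 0.05, and the median was -0.07. Without PMX-53 replicate 5 there were 6, and with limma voom, or in the edgeR fit on the 12 non-diabetic libraries, 7. Without the 4 libraries that stood apart there was 1, and the median was -0.05. Targets of PPARα, the nuclear receptor that drives this program, showed the same dependence. Of 22 tested, 20 were negative, with a median of -0.21. At an unadjusted p under 0.05 none was higher and 3 were lower, beside 3.52% and 3.71% of all genes. They were Pex11a, a peroxisomal membrane protein (-0.32 ± 0.09), Ehhadh, the peroxisomal bifunctional enzyme (-0.41 ± 0.16), and Acot1, an acyl-CoA thioesterase (-0.49 ± 0.22). Without vehicle replicate 5 the count was 1 and the median -0.17. Without PMX-53 replicate 5, the highest PMX-53 library for these 3, it was 9 with a median of -0.37, and without the 4 libraries that stood apart 1 with a median of -0.15. Vehicle replicate 5 also had the highest Cyp7b1, 123 CPM against 33.3 to 64.0 in the other 5. Cyp7b1 is a sterol hydroxylase and was listed with markers of the last proximal tubule segment, S3. The part of that library in the result was not tested beyond leaving it out. Over all genes 1142 had an unadjusted p under 0.05, and 928 to 1317 with 1 library left out.

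Cholesterol synthesis and glutathione synthesis each had a few low-p members. Sqle, squalene epoxidase, ran from 42.9 through 46.1 to 55.2 CPM on vehicle and from 34.2 through 36.3 to 43.4 CPM on PMX-53 (-0.33 ± 0.10, adjusted p = 0.454), and Insig1, which restrains the sterol sensor, was at -0.33 ± 0.12. Of 23 genes of cholesterol and fatty acid synthesis, which form 1 list, 3 were lower and none higher at an unadjusted p under 0.05. Over all genes the shares were 3.71% and 3.52%. Gclc (chr9:77754535-77794485), the catalytic subunit of glutamate-cysteine ligase that limits glutathione synthesis, ran from 204 through 268 to 340 CPM on vehicle and from 131 through 179 to 230 CPM on PMX-53 (-0.61 ± 0.14, adjusted p = 0.327 by edgeR and 0.0494 by DESeq2). In diabetic mice it was at 0.04, and the interaction passed (0.65, adjusted p = 0.0431). Gclm, its modifier subunit, was at -0.21 ± 0.10, and vehicle replicate 5 stood apart at 298 CPM. Over 14 targets of NRF2, the factor that drives both subunits, the median was -0.02.

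Markers of the distal nephron and of the podocyte lay mostly above 0, and none passed. Podocytes are the filtration cells of the glomerulus. Of 12 podocyte markers 10 had a positive log2 fold change, with a median of 0.24, and 5, all higher, had an unadjusted p under 0.05. Over all tested genes 50.1% were positive and 3.52% were higher at that p. Wt1, the podocyte transcription factor, ran from 4.33 through 6.03 to 6.84 CPM on vehicle and from 6.21 through 8.56 to 9.26 CPM on PMX-53 (0.50 ± 0.15, adjusted p = 0.399). Synpo, an actin-bundling protein of the foot process, was at 0.30 ± 0.09 and Podxl, podocalyxin, at 0.21 ± 0.08. Tcf21, a further podocyte factor, was at -0.02 ± 0.22. The summed markers ran from 266 to 315 CPM on vehicle and from 292 to 371 CPM on PMX-53. In diabetic mice 10 of the 12 were higher past the threshold, with a median of 0.47.

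All 7 markers of the distal convoluted and connecting tubule were positive, with a median of 0.29 and 2 at an unadjusted p under 0.05. The shares over all genes, for this list and the collecting duct lists, were 50.1% positive and 3.52% higher at that p. Slc12a3, the thiazide-sensitive sodium chloride cotransporter, ran from 795 through 866 to 936 CPM on vehicle and from 915 through 1029 to 1297 CPM on PMX-53 (0.27 ± 0.09, adjusted p = 0.448). Slc8a1, a sodium-calcium exchanger, was at 0.33 ± 0.12. Principal cells of the collecting duct had 7 of 7 positive, with a median of 0.25, led by Avpr2, the vasopressin V2 receptor (0.46 ± 0.15), and Scnn1b, a subunit of the sodium channel ENaC (0.25 ± 0.11). Their water channel Aqp2 was at 110 CPM in PMX-53 replicate 6 against at most 49.1 on vehicle (0.51 ± 0.29). Intercalated cells, which secrete acid or base, had 9 of 9 positive, with a median of 0.24 and 4 at an unadjusted p under 0.05. Atp6v1b1, a subunit of their proton pump, ran from 46.6 through 50.9 to 56.2 CPM on vehicle and from 56.2 through 59.1 to 63.5 CPM on PMX-53 (0.21 ± 0.06, adjusted p = 0.421). Slc4a1, an anion exchanger and 1 of these 4 (0.47 ± 0.19, adjusted p = 0.594), is also on the red blood cell list, of which all 7 tested genes were positive with a median of 0.23. The summed red blood cell genes ran from 324 to 615 CPM on vehicle and from 327 to 862 CPM on PMX-53, and their part in this value was not tested.

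These counts moved with single libraries, and the count over all genes at an unadjusted p under 0.05 ran from 928 to 1317 with 1 left out. Without vehicle replicate 6 the podocyte list had 2 members and the principal cell list 1 at an unadjusted p under 0.05, and without PMX-53 replicate 1 the podocyte list had 8. The principal cell list also had 1 without vehicle replicate 5, and 4 without PMX-53 replicate 3. The distal convoluted tubule list had 4 without vehicle replicate 5, and the intercalated list 7 without vehicle replicate 2. The medians stayed between 0.13 and 0.43 for the 4 lists over the 12 libraries left out in turn. Without the 4 libraries that stood apart the podocyte list had 0 members at that p and a median of 0.17, with Wt1 at 0.29. The distal convoluted tubule list then had 3 and a median of 0.26, the principal cell list 1 and 0.10, and the intercalated list 3 and 0.14. Markers of the first proximal segments had a median of 0.13 over 8 genes and those of the thick ascending limb -0.17 over 7. Whether the cortex pieces held different amounts of these segments cannot be told apart from a difference per cell.

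**Figure D5:**
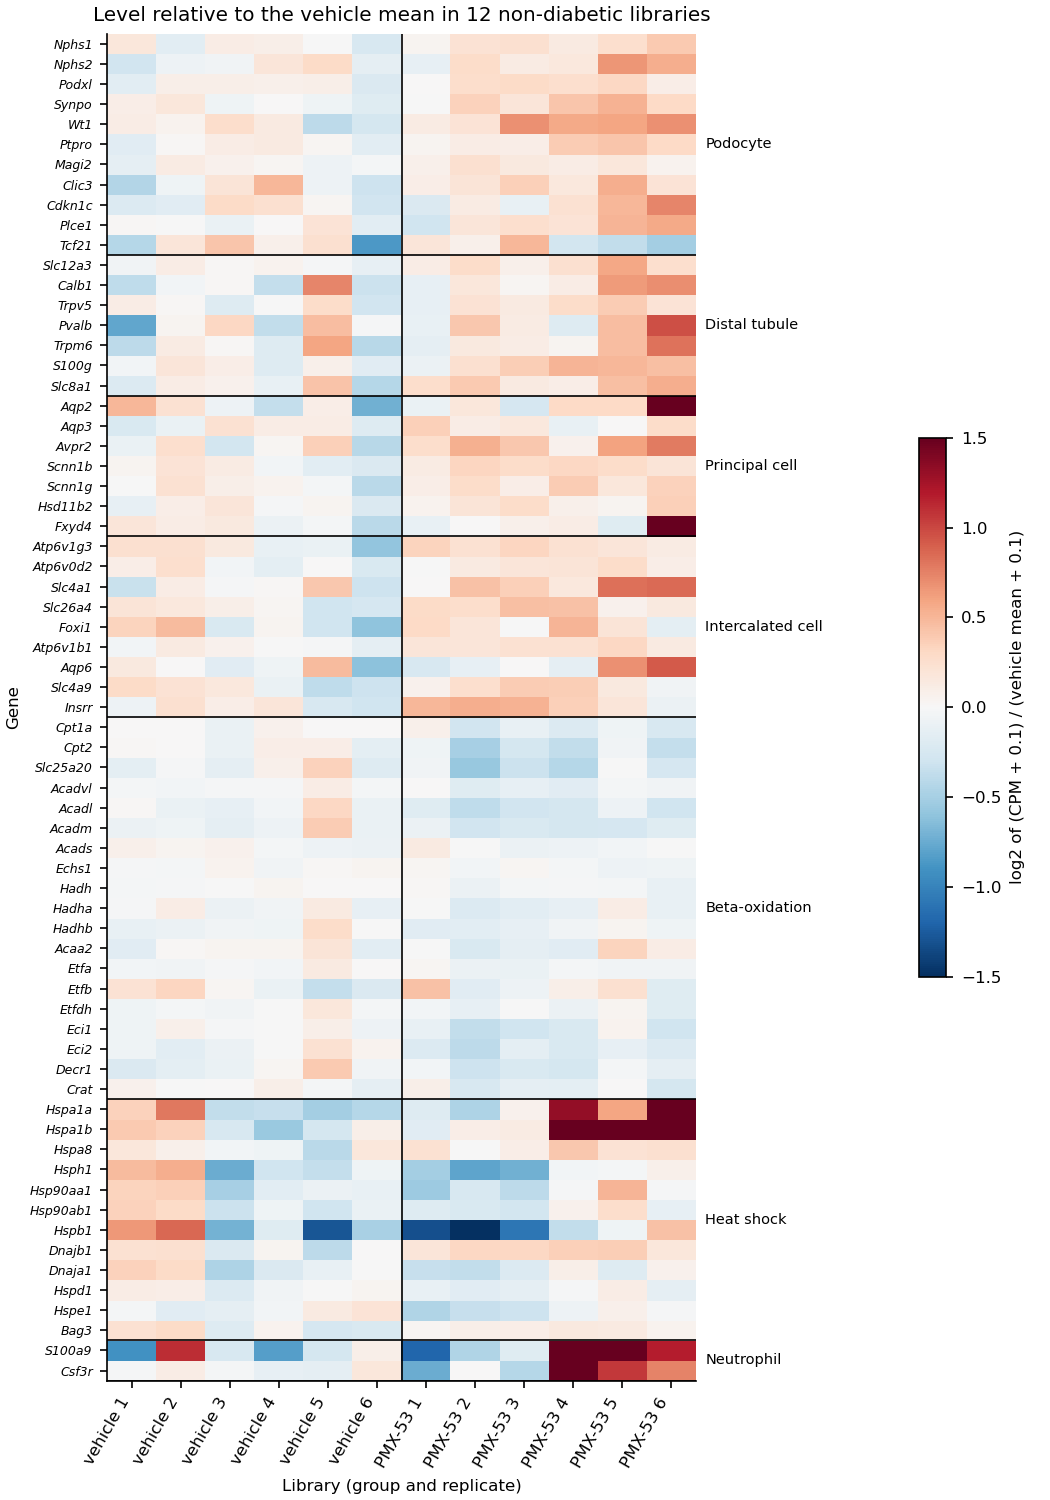
Each row is a gene and each column 1 of the 12 non-diabetic libraries, and the colour is the log2 of the level over the vehicle mean (0.1 CPM added to both), with the colour scale ending at 1.5 in each direction. Podocyte and distal nephron rows are mostly red in PMX-53 libraries, vehicle replicate 5 is red in several beta-oxidation rows, and PMX-53 replicates 4 to 6 are red for Hspa1a, Hspa1b, S100a9 and Csf3r.

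Of 12 heat shock genes tested, 3 were higher (Hspa1b, Hspa1a and Dnajb1) and 1 lower (Hspe1) at an unadjusted p under 0.05. The shares over all genes were 3.52% and 3.71%, and the median of the list was -0.07. Hspa1b, an inducible HSP70 gene, ran from 2.47 through 3.51 to 4.83 CPM on vehicle, from 3.26 to 3.99 CPM in PMX-53 replicates 1 to 3 and from 12.7 to 21.7 CPM in replicates 4 to 6 (1.44 ± 0.38, adjusted p = 0.368). Hspa1a, a near-identical copy whose reads the authors' counting could divide between the 2 genes, was also highest in PMX-53 replicates 4 and 6, whereas PMX-53 replicate 5, at 5.68 CPM, lay below vehicle replicate 2 at 6.56. Dnajb1, a cochaperone of HSP70, ran from 22.3 to 25.6 CPM over all 6 PMX-53 libraries, without such a division. Without the 4 libraries that stood apart 1 gene of the list was higher and 1 lower, with Hspa1b at 0.64 and Hspa1a at -0.15. Neutrophil markers moved with the same libraries. Csf3r was at 2.22 to 4.51 CPM in PMX-53 replicates 4 to 6 and at 0.724 to 1.45 CPM in the other 9 libraries, and S100a9 at 1.34 to 2.53 and 0.181 to 1.28. Of the 8 neutrophil markers only these 2 were tested, their sum ran from 1.43 to 2.67 CPM on vehicle and from 0.905 to 7.04 CPM on PMX-53, and Mpo had no count. The part of neutrophil RNA in the heat shock values was not tested.

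Over all tested genes the groups did not overlap in 0.443%. Like the clock, cardiolipin, sodium transport and first proximal segment lists, the renin-angiotensin list held 1 such gene. Agt (chr8:124556534-124569706), which encodes angiotensinogen, ran from 22.6 through 25.7 to 31.1 CPM on vehicle and from 15.9 through 19.2 to 21.1 CPM on PMX-53 (-0.50 ± 0.16, adjusted p = 0.482). In diabetic mice it was at -1.30, past the threshold, and the interaction of -0.79 passed (adjusted p = 0.0289). Klk1, tissue kallikrein of the connecting tubule, was at 0.29 ± 0.11, and Mme, neprilysin, at -0.31 ± 0.14, with vehicle replicate 5 the highest at 162 CPM. Of 5 tested liver genes 1 was positive and 4 negative, with a median of -0.09 and a highest value of 0.06. At an unadjusted p under 0.05 none was higher and 2 were lower, beside 3.52% and 3.71% of all genes. They were Alb (-1.14 ± 0.43, adjusted p = 0.563) and Serpina1a (-0.98 ± 0.40, adjusted p = 0.608), liver transcripts that proximal tubule also carries at low levels. Alb rested on vehicle replicates 4 and 5, the highest at 29.5 CPM, against at most 8.26 in the other 10 libraries.

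Markers of other cell types that the pieces could hold gave no call. Endothelial markers had a median of 0.05 over 11 genes and B and plasma cell markers one of -0.35 over 6 (-0.62 without the 4 libraries that stood apart). The summed B and plasma cell markers ran from 113 to 259 CPM on vehicle and from 90.5 to 153 CPM on PMX-53, and those of the macrophage and dendritic list from 70.7 to 107 and from 67.0 to 96.1.

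Among 22 sodium transport genes 3 were higher and none lower at an unadjusted p under 0.05, beside 3.52% and 3.71% of all genes. They were Slc12a3 and Scnn1b, described above, and Slc9a3, the sodium-hydrogen exchanger of the proximal tubule (0.21 ± 0.08). The count was 1 without vehicle replicate 5, 5 without vehicle replicate 2 and 8 in the edgeR fit on the 12 non-diabetic libraries, and 2 without the 4 libraries that stood apart. The count over all genes also moved, from 928 to 1317 with 1 library left out. Of 23 transporters of drugs and organic ions none was higher and 2 were lower at an unadjusted p under 0.05, beside the same shares of all genes. They were Slco4c1, an organic anion transporter (-0.79 ± 0.29, from 13.5 to 31.0 CPM on vehicle and 8.36 to 13.7 on PMX-53), and Abcb1b, a multidrug pump (-0.36 ± 0.16). Genes that differ between male and female kidneys gave no member at an unadjusted p under 0.05 in non-diabetic mice. The 14 tested male-biased genes had a median of 0.02, against 1.28 in diabetic mice, where 12 passed. The 10 female-biased genes had one of -0.07, against -2.19 in diabetic mice, where all 10 passed both that test and the interaction. Over all tested genes 27.3% passed in diabetic mice and 9.42% in the interaction.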

How the data were processed

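Per the labels' protocols, the input was 200 ng of total RNA from renal cortex, ribosomal RNA was removed, and the kit kept strand. The submitters' processing notes name bcl2fastq 2.20.0.422, STAR and GRCm38. No version of STAR, annotation, counter or strand setting is given in these sources, so genes that overlap or lie antisense, and near-identical copies (Hspa1a with Hspa1b, C4a with C4b), are uncertain. The deposited table holds raw read counts per gene for 24 libraries, with 0 entries that name no gene. The 12 non-diabetic libraries held 12461567 to 17810087 counts. The 30 pairs of libraries within their groups all differed beyond counting noise (chi-square per degree of freedom at least 5.65, 0 identical). By this measure vehicle replicates 5 and 6 (10.9 from each other, 32.8 to 78.6 from the other 4) and PMX-53 replicates 4 and 6 (10.7 from each other, 18.8 to 52.2 from the other 4) stood apart within their groups, and a fit without these 4 libraries was added after seeing the data.

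edgeR 4.0.16 in R 4.3.3 kept 15808 of 48526 genes with its default filter over the 4 groups, scaled libraries by the trimmed mean of M-values and fitted all 24 with 1 coefficient per group by robust quasi-likelihood. Benjamini-Hochberg adjustment ran over every tested gene, and calls needed an adjusted p under 0.05. A standard error is the size of the log2 fold change over the root of F, and 95% intervals use the degrees of freedom of the fit. Levels are normalized CPM, given as mean ± SD or as lowest, median and highest of 6 libraries. Exact two-sided permutation tests served for library properties. Alternatives were other scalings and filters, DESeq2 1.42.0, limma 3.58.1 voom, a 1.2-fold minimum, a replicate block, thinned libraries, fits on 12 libraries and each library left out in turn. Simulated counts with known differences were used to test the scripts. Positions come from GENCODE M21, and Python 3.11.15 with matplotlib 3.10.9 drew the figures.

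Named genes are the 24 with the smallest p (average log2 CPM of at least 1, symbol not a gene model), C5ar1, C5ar2, Hc, C3, and from each list described up to 3 genes, those of smallest p. Other list members and Nnt, Ide and Igkv6-13 are named outside this rule, and some genes that it takes are not reported here. The members and the 59 lists (35 pathways, 20 sets of cell type markers, 4 for RNA quality) were chosen with earlier results of these data known, so counts over a list are descriptions.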

Additional observations from a re-analysis of the deposited data

Results flagged for a closer look

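In 95 named genes, 190 groups of 6 libraries were examined for a single library far from the others, and 20 had one. Chance alone gives about 1 in 20 groups for independent, normally distributed values. These genes share libraries and their levels were not on a log scale, so that rate need not hold here. Vehicle replicate 5 stood above the other 5 vehicle libraries in 7 genes. They were Acadl (263 CPM), Acadm (583), Ehhadh (915, against 552 to 637), Slc22a19 (71.6, an organic anion transporter, against 25.8 to 28.8), Gclm (298), Mme (162) and Cyp7b1 (123). Vehicle replicate 1 stood high for Krt20 (2.84 CPM), Cdkn1a (5.56), Srxn1 (82.3, against 38.7 to 43.6) and Serpina1a (19.5). Cdkn1a is a cell cycle inhibitor and Srxn1 an antioxidant enzyme. Vehicle replicate 4 stood high for C3 (29.3 CPM) and C3ar1 (6.12), and vehicle replicate 2 for S100a9 (1.28). Vehicle replicate 3 was high for the ATP synthase gene Atp5e (83.5 CPM) and low for the immediate early gene Ier2 (4.27).

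Among the PMX-53 libraries, replicate 5 was high for Tmem132a (8.84 CPM), Tnfaip3 (10.3, an inhibitor of NF-kappaB signalling) and Slc12a3 (1297). Replicate 6 was low for the ATP synthase gene Atp5j2 (45.3 CPM, against 53.3 to 56.7).

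For 20 of the 95 genes the effect of PMX-53 differed between diabetic and non-diabetic mice in edgeR's interaction test, beside 9.42% of all tested genes. Most of the 95 were chosen by a small p in non-diabetic mice, which favours a pass. The values below are the log2 effect in diabetic minus that in non-diabetic mice. It was positive for Klf3 (0.36), Gclc (0.65), Bach2 (0.47), Hnf4aos (1.08), Gga2 (0.37), Gclm (0.45), C4a (1.94) and Slc22a7 (1.93), an organic anion transporter of the proximal tubule. C4a and C4b are near-identical copies. It was negative for C3 (-3.28), Agt (-0.79), St3gal5 (-0.61), Apoa2 (-0.88) and Cds1 (-0.29). The respiratory chain genes were also negative, with Ndufa11 at -0.39, Ndufb7 at -0.43, Cox7a1 at -0.67, Uqcrq at -0.50, Uqcr11 at -0.45, Atp5g1 at -0.47 and Atp5j2 at -0.70.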

How the results depend on the processing

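The count of 0 genes past the threshold held under 22 of the 24 settings tried, including every library left out in turn (0 to 0). The exceptions were DESeq2, with 4 genes (among them Vav2, Pde4d and Gclc), and no filter beyond 1 count, with 1 (Igkv6-13, an antibody segment, at -3.83, adjusted p = 0.0389). In fits on the 12 non-diabetic libraries alone, edgeR called 0 genes (smallest adjusted p 0.0699), and in 2 settings chosen after seeing the data DESeq2 called 58 and limma voom 3 (Klf3, Slc16a9 and Palld). The cause was not tested. Without vehicle replicates 5 and 6 and PMX-53 replicates 4 and 6 together, also chosen after seeing the data, edgeR called 0 genes (655 at an unadjusted p under 0.05, from fewer libraries), the interaction passed for 712, Hspa1a was at -0.15 and Apoa2 at 0.026. The genes at an unadjusted p under 0.05 numbered 928 to 1317 with 1 library left out. Tested against a 1.2-fold change, the interaction passed for 288 genes in place of 1489. With the replicate number as a block it passed for 1344, and PMX-53 in non-diabetic mice for 0. Deviations of same-numbered libraries correlated at -0.09 to 0.10, and 0 of 6 numbers matched best with themselves. No pairing by number was seen, and a shared factor of small effect could go unseen in 6 pairs.

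Low or variable genes changed sign. C5ar1 was at 0.081 with limma voom and at 0.091 with voom on the 12 libraries, and with 1 library left out it ran from -0.454 to 0.011, C3ar1 from -0.50 to 0.0026, C3 from -0.19 to 0.18 and Apoa2 from -0.13 to 0.14. The difference in the mitochondrially encoded share ran from -0.177 to 0.849 percentage points, and that in the share of the 100 most counted genes from -0.658 to 1.19. No other sign changed among 2318 values of 97 genes, and no scaling moved the median of all genes by over 0.0064. C5ar1 rests on 7 to 38 counts per library, and its spread between libraries was not separated from counting error.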
